A study of Mus musculus with 8 samples.

Results

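The genes described here are the subunits of the transcription factor AP-1 and a small set of immediate early genes in mouse knee cartilage. The 10 members were taken by symbol from the deposited gene table, namely Fos, Fosb, Fosl1 and Fosl2 (Fos family), Jun, Junb and Jund (Jun family), Atf3, Egr1 and Ier2. All 10 were found among the 50462 gene identifiers of the table, and 9 had enough counts to be given an adjusted p. The 8 RNA-seq libraries came from medial knee cartilage caps, one library per male wild-type C57Bl/6J mouse. The 4 naive mice (day 0, aged 11 weeks) had no surgery. The 4 DMM mice (day 42, aged 17 weeks) had the left medial meniscus destabilised by cutting its tibial ligament at 11 weeks of age, and received isoflurane and buprenorphine around the operation. Destabilisation of the medial meniscus, DMM for short, serves as a surgical model of post-traumatic osteoarthritis. Because no sham group was analysed here, surgery, the 6 weeks of age and the drugs given cannot be told apart. The caps were dissected and washed before freezing. Any difference between the groups in that handling cannot be told apart from these either.

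AP-1 is a dimer of basic leucine zipper (bZIP) proteins. Jun proteins pair with each other or with Fos proteins, whereas Fos proteins need a Jun partner, and the dimers bind short palindromic DNA elements. Fos, Fosb, Jun, Junb, Egr1 and Ier2 are classical immediate early genes, whose transcripts appear within minutes of growth factor, cytokine or mechanical stimulation and decay quickly, while Jund and Fosl2 are expressed more steadily in many cells. In cartilage, AP-1 is known as a regulator of matrix metalloproteinase genes.

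Several AP-1 genes are themselves known targets of bZIP factors, through cyclic AMP response elements and related sites near their start. Matches to such elements are shown for that reason, as a description of the sequence and not as bound sites. RefSeq promoter windows (GRCm38.p6, 250 bases before to 50 after the start) were matched for 7 of the 10 members, those of Fos, Fosb, Fosl2, Jun, Junb, Jund and Atf3. Fosl1, Egr1 and Ier2 had no entry. The short element TGACG, searched on both strands, was found in 4 of the 7 windows (Fos, Fosb, Junb and Atf3) and in 20.8% of all 32851 windows. The Jun window held TGACATCA, a site of Jun and Atf proteins, which was found in 3.62% of all windows. The full palindrome TGACGTCA, which contains TGACG, was in none of the 7 and in 1.79% of all windows, and the AP-1 element TGANTCA was in none of the 7 and in 7.81% of all. The CArG box, the element of serum response factor, was in none of the 7 and in 1.63% of all. Sites more than 250 bases before the start, and all sites of Fosl1, Egr1 and Ier2, were outside the search. A window without a match therefore does not show that a gene lacks the element. The sites are printed 5′ to 3′ along the gene, with the element in capitals.
Jun, chr4:95052249-95052278, minus strand: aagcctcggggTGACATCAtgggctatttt
Fos, chr12:85473813-85473839, plus strand: gttccgcccagTGACGtaggaagtcca
Fos, chr12:85473750-85473776, plus strand: gggcgtagagtTGACGacagagcgccc
Fosb, chr7:19310090-19310116, minus strand: ggagttgcgggTGACGcaagcgcgggg
Junb, chr8:84978839-84978865, minus strand: cttcctgacagTGACGcgagccgcctc
Atf3, chr1:191183325-191183351, minus strand: taatagcattaCGTCAgcctgggattg
In the Atf3 window the element lies on the opposite strand, so it is read as CGTCA along the gene. That window is at a start inside the annotated span of Atf3 (chr1:191170296-191218039), not at the outermost start of the gene.

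The cell makeup and scaling of the libraries touch the results that follow. The chondrocyte markers of the label (6 of 13 tested called higher, none of the 14 at 0 throughout) together had counts in every library. They held 0.572% to 1.02% of counts in naive and 1.04% to 1.51% in DMM libraries. Osteoblast and osteocyte markers (9 of 10 called higher, none at 0) went from 0.910% to 1.31% of counts in naive to 2.59% to 3.18% in DMM libraries, and synovial fibroblast markers (5 of 8 called higher, none at 0) from 0.0571% to 0.101% in naive to 0.164% to 0.298% in DMM libraries. Neutrophil markers (11 of 12 called lower, none at 0) went from 0.897% to 1.25% in naive to 0.422% to 0.892% in DMM libraries. The exact permutation p was 0.0286 for each of these 4 lists, the smallest the design allows, and 0.0857 adjusted over 12 marker lists. Erythroid markers (8 of 9 called lower, none at 0) overlapped between groups (1.08% to 1.81% and 0.598% to 1.26%; exact permutation p = 0.0857), and the other 7 lists had exact permutation p from 0.0571 to 0.514. In bulk libraries, fewer cells of a type and less RNA per cell cannot be told apart. With the level of neutrophil and erythroid markers as a covariate in DESeq2, 0 members and 230 genes in all were called. That level (mean log2 normalised count) did not overlap between groups, at 12.46 to 13.17 in naive and 11.42 to 12.38 in DMM libraries. The fit therefore cannot cleanly tell the marker level apart from the group, here and wherever the covariate is named below. The part of the osteoblast, fibroblast and chondrocyte markers in the values of the AP-1 genes was not tested. The most abundant identifier, ENSMUSG00000119584, which has no symbol, held 10.1% to 17.9% of counts in naive and 4.31% to 8.65% in DMM libraries, so values scaled to the total count are shifted upwards in DMM.

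Across the 9 tested members, 2 were called higher in DMM (Jun and Atf3) and 0 lower, where a call needs a DESeq2 adjusted p up to 0.05 together with at least a 1.5-fold change. Of all 17760 genes tested, 13.7% were called in either direction, 7.75% higher and 5.92% lower in DMM. The log2 fold change was above 0 for 8 of the 9, with a median of 0.48, compared with a median of -0.02 over all genes tested. Without the fold threshold, the 3 Jun family genes and Atf3 passed the adjusted p, where 22.6% of all genes passed it and 11.4% passed it and were higher in DMM. Naive and DMM libraries were fully separated in normalised counts for 4 members, namely Jun, Junb and Atf3 (higher in DMM) and Ier2 (lower). The same separation held for 22.2% of all genes tested, 11.9% with DMM higher and 10.3% with DMM lower.

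**Figure D1:**
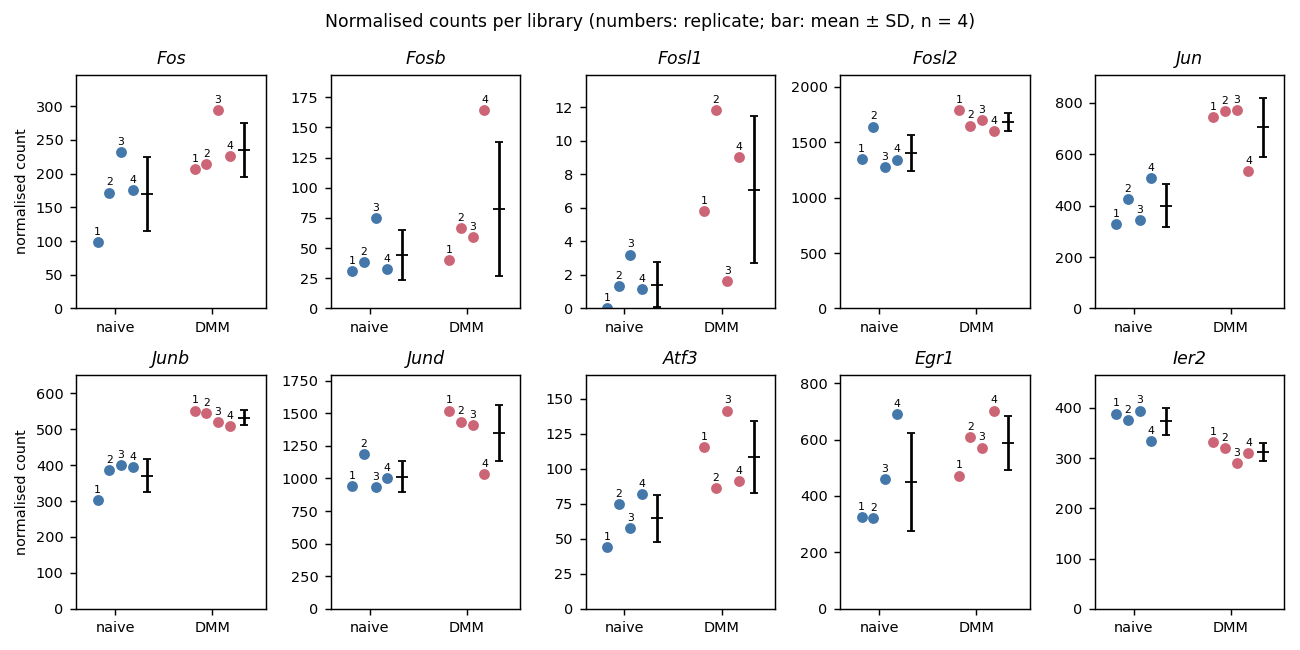
Normalised counts of the 10 members (vertical axes, each from 0) in the 4 naive and 4 DMM libraries, numbered by replicate, with the mean and SD (n = 4) to the right of each group. All DMM points of Jun, Junb and Atf3 lie above the naive points, whereas Fos, Fosb, Fosl2, Jund and Egr1 overlap.

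The Jun family, which can supply both subunits of an AP-1 dimer, had 1 gene called of 3, Jun, where 13.7% of all genes tested were called. Jun, the founding AP-1 subunit (chr4:95049034-95052222, GRCm38), had 328, 424, 344 and 506 normalised counts in naive replicates 1 to 4 and 743, 769, 771 and 534 in DMM replicates 1 to 4. The lowest DMM library, replicate 4, lay just above the highest naive library, also replicate 4. Jun rose from 400.4 ± 81.9 to 704 ± 114 (SD, n = 4 each; log2 fold change 0.82, SE 0.18, adjusted p = 0.000103 by DESeq2). The call held in all 8 leave-one-out fits, each of which omitted 1 library, and was lost with the neutrophil and erythroid covariate (0.63, DESeq2 adjusted p = 0.46) and against a 1.5-fold null.

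Junb, which can act as a weaker activator than Jun or oppose it (chr8:84974484-84978718), had 302, 386, 399 and 395 normalised counts in naive and 552, 546, 521 and 509 in DMM libraries. The DMM libraries were close together and all above the naive ones, of which replicate 1 was the lowest. The difference of 0.53 on the log2 scale (SE 0.13, DESeq2 adjusted p = 0.00046) is a 1.44-fold change, which passed the adjusted p and not the fold threshold. Its adjusted p lay between 0.000821 and 0.00662 in the leave-one-out fits. Junb shares 6.51% of its 31-base words (all stretches of 31 bases in its transcripts) with Prdx2, an overlapping gene on the other strand that moved the opposite way (-0.64, DESeq2 adjusted p = 0.0142).

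Jund, the Jun gene with the highest counts (chr8:70698949-70700616), had 940.1, 1184, 932 and 1000.1 normalised counts in naive and 1521, 1436, 1409 and 1035 in DMM libraries. DMM replicates 1 to 3 were above all naive libraries, and DMM replicate 4 lay within the naive range. On the log2 scale the change was 0.41 (SE 0.15, adjusted p = 0.0246 by DESeq2), a 1.33-fold change. Its adjusted p ranged from 0.000455 to 0.115 when single libraries were left out and was under 0.05 in the fits without naive replicate 2, naive replicate 4 or DMM replicate 4. Much of its sequence is not unique to it, since 50.1% of its 31-base words occur in Gm11175, an antisense gene that changed by 0.77 (DESeq2 adjusted p = 0.0283). With the counts of Gm11175 added to Jund, the log2 fold change was 0.47 (DESeq2 adjusted p = 0.0197), and with those of the antisense gene Junos added to Jun it was 0.80 (DESeq2 adjusted p = 0.000145).

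None of the 3 tested Fos family genes was called, where 13.7% of all genes tested were. Fos (chr12:85473890-85477273), the partner that stabilises the AP-1 dimer on DNA, had 98.5, 172, 232 and 176 normalised counts in naive and 206, 214, 294 and 226 in DMM libraries. Naive replicate 3 was above 3 of the DMM libraries, and naive replicate 1 was the lowest. On the log2 scale the change was 0.48 (95% interval 0.00 to 0.95, adjusted p = 0.147 by DESeq2). Without naive replicate 3 it was 0.67, and Fos was then called (DESeq2 adjusted p = 0.0346).

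Fosb (chr7:19302696-19310051) had 30.8, 38.6, 74.9 and 32.9 normalised counts in naive and 39.8, 66.6, 59.3 and 164 in DMM libraries. The DMM mean of 82.5 rested on replicate 4, and naive replicate 3 was above the other 3 DMM libraries. On the log2 scale the change was 0.90 (95% interval 0.04 to 1.75, adjusted p = 0.128 by DESeq2), 0.32 without DMM replicate 4 (adjusted p = 0.626) and 1.28 without naive replicate 3 (adjusted p = 0.0294, then called).

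Fosl2, also called Fra-2 (chr5:32135801-32157842), had 1348, 1642, 1277 and 1344 normalised counts in naive and 1790, 1651, 1699 and 1602 in DMM libraries. Naive replicate 2 lay within the DMM range and the other 3 naive libraries below it. On the log2 scale the change of 0.27 (95% interval 0.05 to 0.48, adjusted p = 0.0574 by DESeq2) excluded a 1.5-fold rise, and the adjusted p without naive replicate 2 was 0.00469.

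Fosl1, also called Fra-1 (chr19:5447547-5455946), was barely detected, with 0, 1.33, 3.21 and 1.13 normalised counts in naive and 5.81, 11.8, 1.65 and 9.03 in DMM libraries. DMM replicates 1, 2 and 4 were above all naive libraries. Fosl1 was given no adjusted p (log2 fold change 2.34, SE 1.04), had an adjusted p of 0.167 with the low-count filter switched off, and shares 54.5% of its 31-base words with Ccdc85b, which overlaps it on the other strand and was itself higher (0.61, DESeq2 adjusted p = 0.00297).

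**Figure D2:**
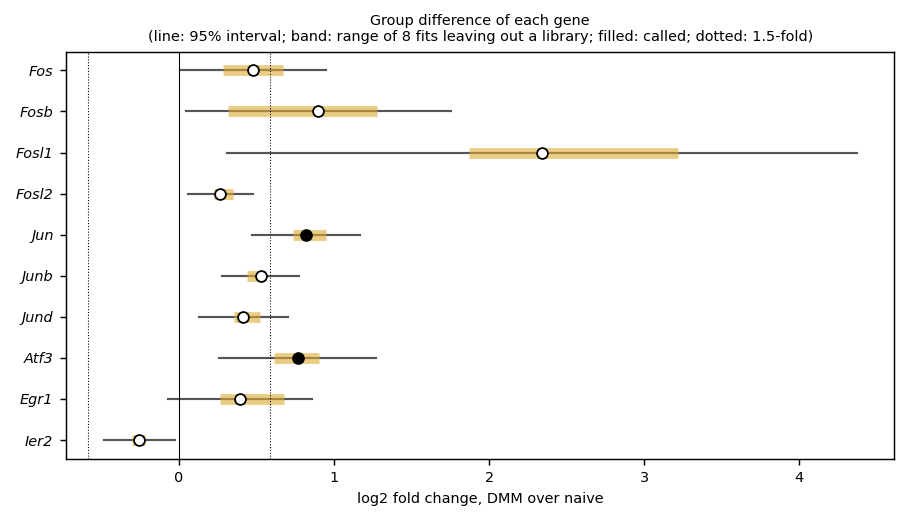
Log2 fold change of DMM over naive (horizontal axis) for each member, with its 95% interval (line) and the range over 8 fits that each left out a library (band). Filled points are the called genes Jun and Atf3, dotted lines mark 1.5-fold, Ier2 alone lies below 0, and the wide interval of Fosl1 rests on few counts.

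The makeup of the 2 families does not depend on how libraries are scaled, and it was given as a description. Fosl2 supplied most Fos family counts, 80.4% to 91.2% in naive and 80.0% to 87.7% in DMM libraries, followed by Fos with 6.67% to 14.6% and 10.1% to 14.3%. Per kilobase of exon the share of Fosl2 was 54.0% to 74.8% and 56.5% to 65.6%, and that of Fos 22.5% to 40.4% and 31.2% to 40.2%. On both scales these shares overlapped between groups. In the Jun family, the share of Jun was 20.9%, 21.3%, 20.5% and 26.6% in naive and 26.4%, 27.9%, 28.6% and 25.7% in DMM libraries. The mean was 4.83 percentage points higher in DMM, while that of Jund went from 56.9% ± 3.41 to 52.0% ± 1.72 (SD, n = 4 each). Naive replicate 4 had a makeup within the DMM range for Jun, and the mean share of Junb was 20.8% in both groups. Whether Jun genes responded differently from Fos genes was not tested.

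**Figure D3:**
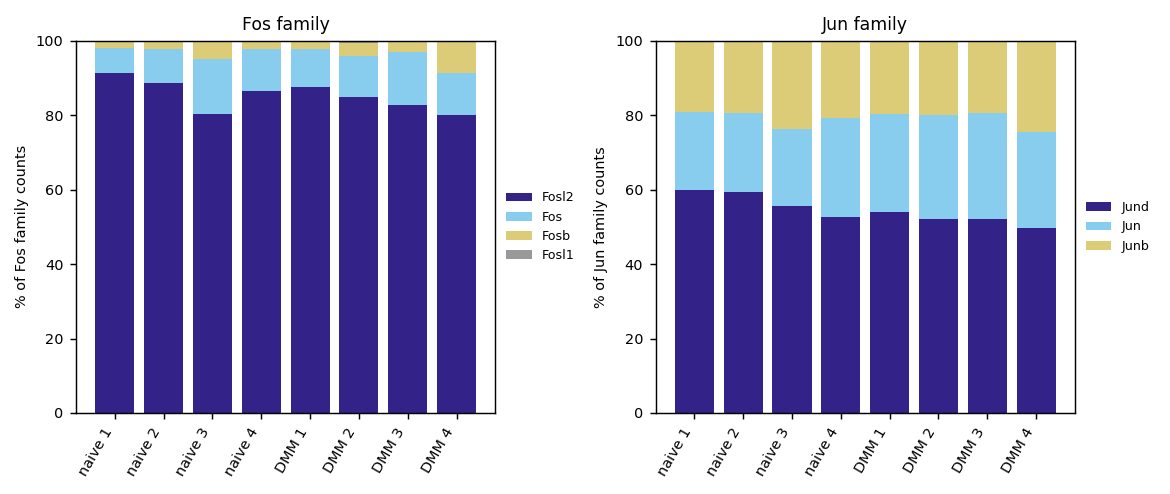
Share of each paralog in the counts of its family (vertical axes, percent) in each library. Fosl2 fills over 80.0% of the Fos family bar in all libraries, and the Jun segment is taller in the DMM libraries and naive replicate 4 than in naive replicates 1 to 3.

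Atf3, a stress-induced bZIP factor that pairs with Jun proteins (chr1:191170296-191218039), had 44.0, 74.5, 57.8 and 81.6 normalised counts in naive and 115, 86.0, 142 and 91.2 in DMM libraries. The groups did not overlap, with DMM replicate 2 just above naive replicate 4. Atf3 rose from 64.5 ± 16.9 to 109 ± 25.5 (SD, n = 4 each; log2 fold change 0.76, SE 0.26, adjusted p = 0.0186 by DESeq2). The call was lost in 4 of 8 leave-one-out fits, with an adjusted p of 0.0999 without naive replicate 1, 0.0715 without naive replicate 3, 0.0749 without DMM replicate 1 and 0.0927 without DMM replicate 3. It was also lost with the neutrophil and erythroid covariate (0.90, DESeq2 adjusted p = 0.524) and against a 1.5-fold null.

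Egr1, a zinc finger factor induced alongside Fos (chr18:34859823-34864984), had 324, 321, 459 and 692 normalised counts in naive and 472, 608, 571 and 703 in DMM libraries. Naive replicate 4 was second only to DMM replicate 4. On the log2 scale the change was 0.39 (95% interval -0.07 to 0.85, adjusted p = 0.247 by DESeq2), and it was 0.67 without naive replicate 4, where Egr1 was called (DESeq2 adjusted p = 0.00234). Ier2, an immediate early gene that encodes a nuclear protein (chr8:84661331-84662852), had 389, 375, 395 and 334 normalised counts in naive and 333, 319, 291 and 309.6 in DMM libraries. It was the only member with a mean below that of the naive group, with a difference of -16.2%, and all 4 DMM libraries lay under the lowest naive library. The log2 fold change of -0.26 (95% interval -0.49 to -0.03) did not pass (DESeq2 adjusted p = 0.103).

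Per kilobase of annotated exon, Jund had the highest level in both groups, with 608 ± 70.3 normalised counts per kilobase (naive) and 810 ± 129 (DMM; SD, n = 4 each). In naive libraries Ier2 came next (245 ± 17.9), and its range did not meet that of Jund or Junb. Junb (161 ± 20.0), Fosl2 (145 ± 16.8), Jun (126 ± 25.7), Egr1 (100.1 ± 38.8) and Fos (72.1 ± 23.3) followed, and the range of each overlapped that of the next. Atf3 (29.9 ± 7.86), Fosb (7.09 ± 3.31) and Fosl1 (0.698 ± 0.655) were each below the gene before them in every library. In DMM libraries Junb (231 ± 8.90) and Jun (221 ± 35.8) were above Ier2 (206 ± 11.6) in mean level, with ranges of 221 to 240.0 for Junb, 168 to 242 for Jun and 191 to 218 for Ier2. Lengths count all annotated exons of a gene, including those of isoforms that may not be expressed here.

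The members also differed in their spread between mice of the same group. Set against genes of similar mean count (within 0.5 on the log2 scale), the gene-wise dispersion of Fosb was at the 96.9 percentile, that of Egr1 at 95.8, Fos at 89.4 and Jun at 85.3. Atf3 was at 73.9, Jund at 72.8, Fosl2 at 36.2, Junb at 33.1 and Ier2 at 9.14. High and low libraries were not the same for each gene, since naive replicate 3 was the highest naive library for Fos and Fosb, and naive replicate 4 for Egr1, Jun and Atf3. Over the 8 libraries, with group means removed, the counts of Fos were most like those of Ccdc91 (Pearson r = 0.99), Acp2 (0.97), D3Ertd254e (0.94), Zfp229 (0.94) and Maoa (0.93) among 11039 genes. These are the highest values of a search over many genes with 8 points and carry no test. Of the 6 other members with a mean of at least 100 counts, Junb had the highest value (r = 0.77), and Fosb, Atf3 and Fosl1 were not compared.

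Other early response genes followed, from a list of 47, of which 46 were tested. In this list 16 genes were called higher and 2 lower in DMM (39.1%, against 13.7% of all genes tested), and the median log2 fold change was 0.25. The list was chosen with earlier results of these data known, so its share called is a description only. Arc, an early gene best known from neurons, rose from 33.8 ± 7.52 to 140 ± 36.6 normalised counts (SD, n = 4 each; log2 fold change 2.06, SE 0.27, adjusted p = 1.21e-11 by DESeq2). Ccn1 (Cyr61), a secreted matricellular protein, rose from 413 ± 27.1 to 1028 ± 186 (log2 fold change 1.31, adjusted p = 1.56e-15 by DESeq2). Sgk1, a serum and glucocorticoid induced kinase, rose by 0.87 (DESeq2 adjusted p = 1.38e-05) and Zfp36l1, an RNA-binding protein of AU-rich transcripts, by 0.75 (DESeq2 adjusted p = 3.22e-10), although most 31-base words of Zfp36l1 also occur in other genes. All 4 calls held in every leave-one-out fit. With the neutrophil and erythroid covariate Sgk1 and Zfp36l1 were no longer called (DESeq2 adjusted p = 0.119 and 0.0572), nor were they against a 1.5-fold null, whereas Arc and Ccn1 were called in both fits.

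Named after their values were seen, the close relatives of Egr1 and the Nr4a orphan receptors were as follows. Egr3 rose from 177 ± 69.3 to 367 ± 86.3 normalised counts (log2 fold change 1.05, adjusted p = 0.000995 by DESeq2), while Egr2 changed by 0.24 (DESeq2 adjusted p = 0.605). Nr4a1, Nr4a2 and Nr4a3 rose by 0.80, 1.11 and 0.97 on the log2 scale (DESeq2 adjusted p = 0.000267, 0.000134 and 0.0105). The groups overlapped for Nr4a3. Egr4, with a mean of 0.252 normalised counts, was given no adjusted p. Members of the list with values near 0 included Zfp36 (-0.01) and Zfp36l2 (-0.09). Lower values that were not called included Pim1 (-0.56, DESeq2 adjusted p = 0.000226), Klf10 (-0.52) and Myc (-0.40). Of the 46 tested genes of the list, 33 had a log2 fold change above 0. Gadd45a, a growth arrest gene, fell by 0.59 in log2 units (DESeq2 adjusted p = 0.000571), a call held in 3 of 8 leave-one-out fits. That value lay close to the fold threshold (0.585). The call was lost on that threshold with TMM factors (-0.564), total count scaling (-0.440), edgeR (-0.571) and limma-voom (-0.584). Ppp1r15a (GADD34), which restarts translation after stress, fell by 0.84 (DESeq2 adjusted p = 0.000814), although DMM replicate 3 lay far above the other DMM libraries. With the neutrophil and erythroid covariate neither was called, at -0.28 for Gadd45a and -0.05 for Ppp1r15a (DESeq2 adjusted p = 0.802 and 0.993).

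**Figure D4:**
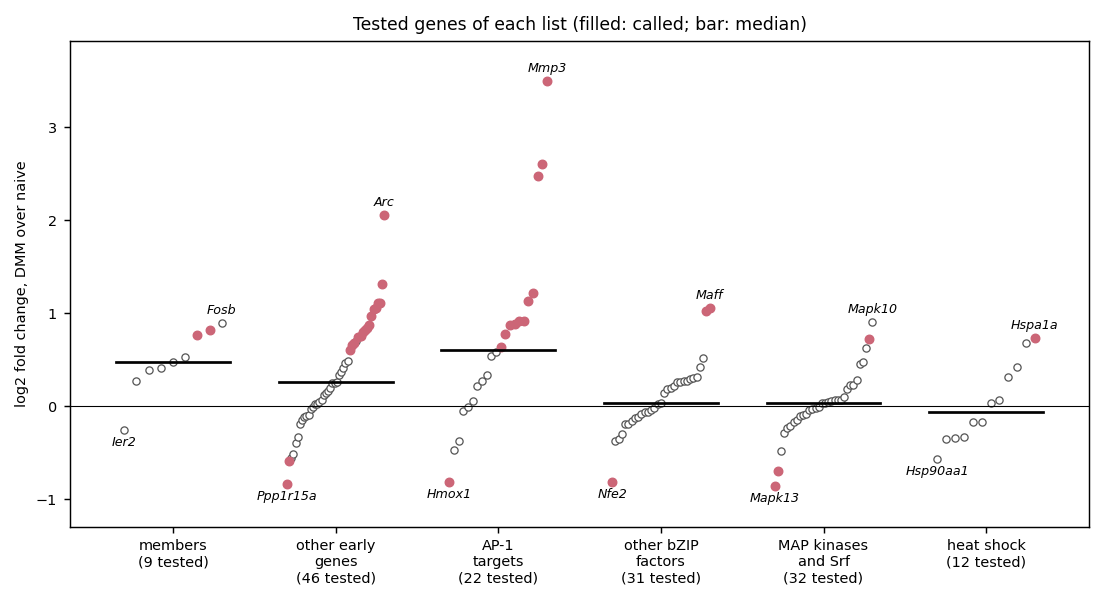
Log2 fold change of DMM over naive (vertical axis) for the tested genes of each list, ordered by value within the list. Filled points are called genes, bars are medians, and the lowest and highest gene of each list are named.

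Of the genes listed as AP-1 targets, 12 of 22 tested were called (54.5%, against 13.7% of all genes), 11 higher and 1 lower. Their median log2 fold change was 0.61, and whether each gene holds an AP-1 site was not examined here. The list was chosen with earlier results of these genes known. Mmp3 (stromelysin) rose from 39.2 ± 18.1 to 442 ± 195 normalised counts, Ptgs2 (cyclooxygenase 2) from 24.9 ± 4.71 to 150.2 ± 58.6, Mmp14 by 0.92 and Mgp by 1.13 in log2 units (DESeq2 adjusted p between 7.84e-20 and 3.59e-07 for the 4). Hmox1, haem oxygenase 1, which is abundant in cells that handle haem, fell by 0.81 (DESeq2 adjusted p = 0.00269). Its value was 0.0206 with the neutrophil and erythroid covariate (DESeq2 adjusted p = 0.996). The part of cell makeup in the fall of Hmox1 was not tested. Mmp14 was not called with that covariate (0.65, DESeq2 adjusted p = 0.18), while Mmp3, Ptgs2 and Mgp were.

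The other bZIP factors that share partners with AP-1 were called for 3 of 31 tested genes (9.68%, against 13.7% of all genes), with a median log2 fold change of 0.03. Creb3l1, a factor of secretory cells including osteoblasts, rose by 1.03 (DESeq2 adjusted p = 1.49e-10), and Maff, a small Maf protein that is also in the early gene list, by 1.06 (DESeq2 adjusted p = 0.002). Nfe2, a factor of blood cells, fell by 0.81 (DESeq2 adjusted p = 0.000156), and the part of cell makeup in this was not tested. With the neutrophil and erythroid covariate Nfe2 was -0.10 (DESeq2 adjusted p = 0.962) and Maff 0.82 (DESeq2 adjusted p = 0.658), both not called, and Creb3l1 was called. Among the MAP kinases, serum response factor and its cofactors, 3 of 32 were called (9.38%, against 13.7% of all genes). Mapk12 rose by 0.72 (DESeq2 adjusted p = 0.0167), whereas Mapk13 and Rps6ka1 fell by 0.86 and 0.70 on the log2 scale. The Mapk12 call held in 4 of 8 leave-one-out fits and the Rps6ka1 call in 7 of 8. With the covariate none of the 3 was called, at 0.25 for Mapk12, -0.40 for Mapk13 and -0.26 for Rps6ka1 (DESeq2 adjusted p = 0.95, 0.638 and 0.798). In the heat shock list, 1 of 12 was called (8.33%, against 13.7% of all genes), and the median was -0.07. This was Hspa1a, with a change of 0.74 (DESeq2 adjusted p = 0.0243), of whose words 70.1% occur in other genes, mainly Hspa1b. The call held in 5 of 8 leave-one-out fits and was lost without naive replicate 1, DMM replicate 2 or DMM replicate 3 (DESeq2 adjusted p = 0.0728, 0.104 and 0.061), with edgeR (adjusted p = 0.0587) and with the covariate (0.60, DESeq2 adjusted p = 0.79).

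Scaling bears on the size of each value above. Under total count scaling, which shifted the median over genes averaging 10 or more counts from -0.01 to 0.14 on the log2 scale, 4 members were called (Fos, Jun, Junb and Atf3), where 13.7% of all genes were called and 11.0% were called higher. When the most abundant identifier was left out of the total, the median was 0.01 and the members called were Jun and Atf3, where 12.8% of all genes were called and 7.76% were called higher. Jun and Atf3 were also the 2 members called with edgeR (11.3% of all genes called, 6.89% higher), limma-voom (11.7%, 7.15% higher) and TMM factors (13.6%, 8.36% higher).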

How the data were processed

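The deposited table holds estimated counts per gene. The authors trimmed reads with Trimmomatic, pseudo-aligned them with Kallisto to a mouse GRCm38 transcriptome and summed transcripts to genes with tximport, whereas the build in the submitters' processing notes is GRCh38. The labels and the methods name different library kits, and whether strand was used is not given in the sources used here. Of the values, 39.2% are not whole, and they were rounded before testing. Totals ranged from 12479400 to 16548000 per library. Symbols were found for 48855 of 50462 identifiers, and coordinates and exon lengths are from GENCODE vM21 (GRCm38).

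DESeq2 1.42.0 in R 4.3.3 was run on all genes and 8 libraries without covariates (Wald test, median-of-ratios scaling, Benjamini-Hochberg adjustment over all genes tested, unshrunken fold changes). On simulated data for this comparison, with 200 genes changed 2-fold, it called 174 of them and 15 unchanged genes over 17469 tested. The changed genes were drawn from those with a mean count of at least 50. Every tested member changed by less than 2-fold, so these rates do not carry over to the members. Shares of counts were compared by two-sided exact permutation over 70 assignments. Fits with edgeR 4.0.16, limma 3.58.1 and other settings are given below.

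Members and gene lists were chosen with earlier results of these data known. Text names each member, up to 4 called genes in each direction per list (mean of at least 50, by adjusted p), and the 5 genes most like Fos (mean of at least 100). Outside this rule are genes overlapping a member and further genes of the early list. Of these, the Egr and Nr4a relatives were named after their values were seen.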

Additional observations from a re-analysis of the deposited data

Results flagged for a closer look

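Of 94 groups of 4 values tested (members, named genes, family shares and marker shares), 14 had 1 library set apart from the other 3 by Dixon's criterion, against some 4.7 by chance. For the members, the normalised count of Jun was 534 in DMM replicate 4 (743 to 771 in the other DMM libraries), and that of Junb was 302 in naive replicate 1 (386 to 399 in the others). The share of Fosb in the Fos family was 4.72% in naive replicate 3 (2.08% to 2.12%), the share of Jun in the Jun family was 26.6% in naive replicate 4 (20.5% to 21.3%), and that of Junb was 24.5% in DMM replicate 4 (19.3% to 19.9%).

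DMM replicate 3 stood apart for Gadd45a (466 normalised counts, 329 to 345 in the other DMM libraries), Ppp1r15a (2066, 1267 to 1281), Hmox1 (734, 482 to 514), erythroid markers (1.26% of counts, 0.598% to 0.653%) and synovial fibroblast markers (0.298%, 0.164% to 0.180%). Ccn1 had 373 normalised counts in naive replicate 2 (423 to 429 in the others) and Rps6ka1 had 964 in DMM replicate 1 (1132 to 1149.8). Muscle markers held 0.00352% of counts in naive replicate 3 (0.000803% to 0.00122%) and 0.0105% in DMM replicate 1 (0.00109% to 0.00151%).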

How the results depend on the processing

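The log2 fold change of each member had the same sign under all settings that gave it a value. Fosl1 had none with edgeR or limma-voom. The number of members called, 2, was 1 to 3 when single libraries were left out. It was 4 under total count scaling, 4 without a fold threshold and 1 with the replicate block. It was 0 against a 1.5-fold null or with the neutrophil and erythroid level as a covariate. Over all genes, the same settings called 1858 to 2842 without single libraries, 2519 (13.7%) under total count scaling and 4010 (22.6%) without a fold threshold. The replicate block called 2081, the 1.5-fold null 94 and the covariate 230, where the main fit tested 17760 genes. The covariate lay higher in every naive library than in any DMM library. It and the 1.5-fold null left 0.63 and 0.82 for Jun and 0.90 and 0.76 for Atf3, not called. With the replicate block Atf3 was 0.76 (DESeq2 adjusted p = 0.0828); same-numbered libraries did not deviate together (correlations of 0.01, 0.08, -0.18 and 0.10). Under total count scaling Fos was 0.63 and Junb 0.68, both called, and without a fold threshold Junb (0.53) and Jund (0.41) were called. Leaving out single libraries gave 0.28 to 0.67 for Fos, 0.32 to 1.28 for Fosb, 0.61 to 0.90 for Atf3 and 0.26 to 0.67 for Egr1. edgeR and limma-voom called Jun (adjusted p = 0.00936 and 0.00919) and Atf3 (0.0439 and 0.0385).

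Over all genes 2429 were called, 1377 higher and 1052 lower. Without a fold threshold 4010 were called, 1989 of them lower. The 1.5-fold null called 94 (80 higher, 14 lower), the covariate 230 (183 higher, 47 lower), and total count scaling 489 lower genes. Called genes under the 1.5-fold null and the covariate were 2 and 3 of the other early genes, 0 and 1 of the other bZIP factors, 0 and 0 of the kinases and 3 and 3 of the AP-1 targets. Without a fold threshold they were 9 for bZIP factors and 7 for kinases. Kinases gave 1 to 3 without single libraries. Heat shock genes gave 2 under total count scaling or without a fold threshold, 0 with edgeR, the 1.5-fold null or shrunken fold changes, and 0 to 3 without single libraries. The share of Fosl1 in its family rose by 0.900 percentage points per kilobase, against 0.261 in counts. Hmox1 reversed with the covariate (0.0206). What caused these shifts was not tested. Totals scaled without the most abundant identifier and summed antisense counts were chosen after seeing the data.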
